A study of Sus scrofa with 3 samples.

Results

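The miR-148 and miR-152 family was described in liver from male pigs aged 90 days. Its members were the 5 mature names ssc-miR-148a-3p, ssc-miR-148a-5p, ssc-miR-148b-3p, ssc-miR-148b-5p and ssc-miR-152, given below without the pig prefix and chosen by name from 411 mature names in the deposited counts, and all 5 were found in every library. Small RNA was sequenced from 1 library for each of 3 breeds, namely the Enshi black pig (domestic, from China), the Chinese wild boar and the Large White pig (commercial, of European origin). The labels give no treatment or genotype. The labels speak of 3 male pigs and do not state whether a library held 1 animal or several, so differences between breeds below cannot be told apart from differences between animals, and no p-value was computed.

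A microRNA (miRNA) is cut from a hairpin precursor with a 5p and a 3p arm, and usually 1 arm is kept as the guide that pairs with messenger RNAs through its seed near the 5′ end. miR-148a-3p, miR-148b-3p and miR-152 come from 3 precursors and share a seed, so they can bind many of the same messages. In human and mouse cells miR-148a-3p is known to repress the cholesterol exporter ABCA1, and family members repress the DNA methyltransferase DNMT1. miR-148a is also abundant in differentiated hepatocytes. The 5p arms have other seeds and are the less abundant arms. In the pig RefSeq table of assembly Sscrofa11.1, MIR148B lies within the span of COPZ1 and MIR152 within that of COPZ2, which encode zeta subunits of the COPI vesicle coat, while no other listed gene spans MIR148A. Mature sequences were not used here.

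Counts of all kept miRNAs summed to 7730934 in the Enshi black, 7824836 in the wild boar and 7343033 in the Large White library. The hepatocyte miRNA miR-122 ranked 1st in each and took 34.2%, 39.5% and 41.4% of the reads in that order of libraries, so each was dominated by the miRNA that marks liver. Summed levels of the other markers moved as well, on the TMM scale explained below. The 3 named leucocyte markers of 4 listed summed to 8930, 2964 and 18017 counts per 1000000 (CPM) in the same order. Most of each sum was miR-142-3p, with 8054, 2346 and 16873 CPM. The others did not share its order, with 314, 91.0 and 278 CPM for miR-150 and 562, 527 and 866 CPM for miR-155-5p. The 5 smooth muscle and fibroblast markers summed to 45886, 37173 and 34980 CPM, and the endothelial miR-126-3p had 14279, 10187 and 8930 CPM. The 3 red cell markers summed to 4114, 3114 and 5324 CPM. On library totals, also explained below, their median log2 ratio in Enshi black over Large White was 0.48, against −0.15 after TMM, so its direction turned. That of the leucocyte markers was 0.01 against −0.62. The 2 hepatocyte markers, miR-122 and miR-885-5p, summed to 284715, 366642 and 536153 CPM after TMM, with miR-885-5p at 46.3, 68.9 and 130 CPM. Their median log2 ratio in Enshi black over Large White was −0.56 on library totals and −1.20 after TMM. The 5 striated muscle markers summed to 229, 176 and 394 CPM, with miR-208b at 0 counts in every library, which allows up to 0.323, 0.356 and 0.529 CPM. In whole tissue, fewer cells of a type and less RNA per cell cannot be told apart, and the part of cell make-up in the results below was not tested.

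The 3 guides of the seed family together held from 1.84% to 2.55% of the reads of a library, and miR-148a-3p made up most of that in all 3 libraries. miR-148b-3p held the smallest share in the Large White liver, and miR-152 the largest share in the wild boar liver. Shares within the family need no scaling between libraries, so these differences do not depend on it. Each share below has an exact Clopper-Pearson 95% interval. This and all later intervals cover counting error only, since each breed has 1 library and no spread between animals can be estimated. The reads carry no molecular identifiers, so repeated copies of a molecule cannot be told apart and the intervals may be too narrow.

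miR-148a-3p took 84.02% of the seed family's reads in the Enshi black library (83.85 to 84.19), 79.66% in the wild boar library (79.48 to 79.83) and 85.14% in the Large White library (84.94 to 85.33). It was the leading member in all 3, lowest in the wild boar. miR-152 took 12.72% in the Enshi black (12.57 to 12.87), 16.42% in the wild boar (16.26 to 16.58) and 13.04% in the Large White library (12.87 to 13.23). The wild boar stood above both domestic breeds, which were 0.327 percentage points apart, and the intervals of those 2 overlapped narrowly. miR-148b-3p, the scarcest of the 3 guides, took 3.26% in the Enshi black (3.18 to 3.34), 3.92% in the wild boar (3.84 to 4.01) and 1.82% in the Large White library (1.75 to 1.89). These 3 intervals did not overlap, and the Large White value was the lowest.

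**Figure D1:**
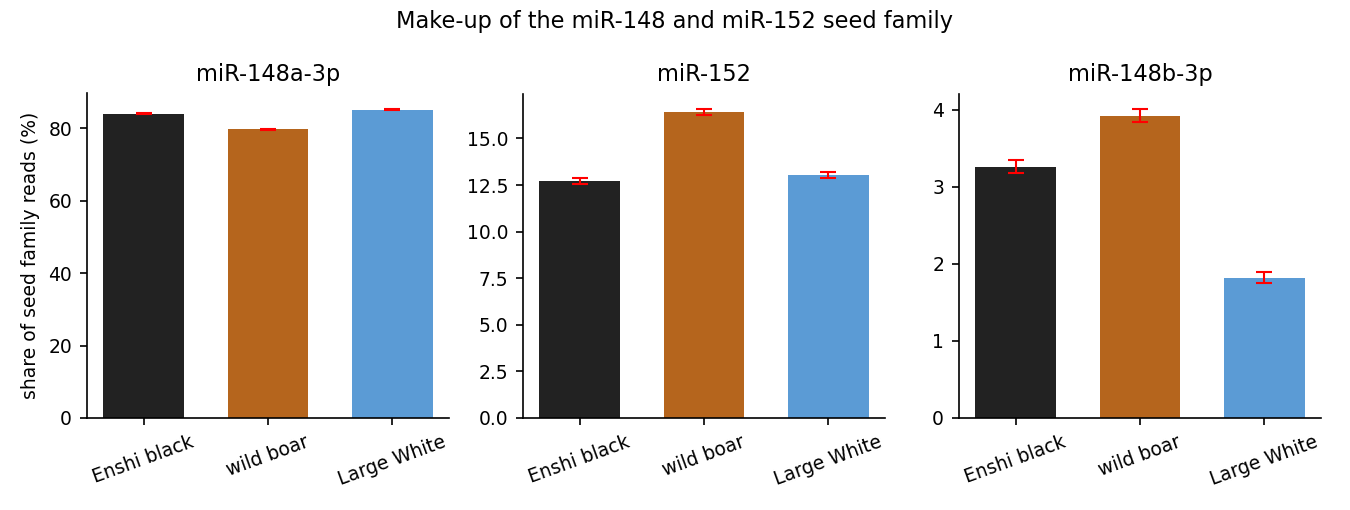
Share of the reads of the seed family (y axis, percent, each panel with its own scale from 0) held by miR-148a-3p, miR-152 and miR-148b-3p in the Enshi black, wild boar and Large White libraries, with exact 95% intervals in red. miR-148b-3p stood at 3.26% and 3.92% in the Enshi black and wild boar libraries and at 1.82% in the Large White library, while miR-152 was highest in the wild boar at 16.42%.

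The same differences can be read as the number of reads of miR-148a-3p for each read of another member. For each read of miR-148b-3p there were 25.8 reads of miR-148a-3p in the Enshi black (25.1 to 26.4), 20.3 in the wild boar (19.9 to 20.8) and 46.8 in the Large White library (44.96 to 48.7). The ratio of miR-148b-3p to miR-148a-3p was thus 1.82-fold higher in Enshi black than in Large White liver (exact conditional interval 1.73 to 1.91) and 2.30-fold higher in wild boar than in Large White liver (2.20 to 2.41). Between Enshi black and wild boar it was 0.788-fold (0.762 to 0.816). For each read of miR-152 there were 6.61, 4.85 and 6.53 reads of miR-148a-3p in the Enshi black, wild boar and Large White libraries. The ratio of miR-152 to miR-148a-3p in the Enshi black over the Large White library was 0.988-fold (0.967 to 1.01), an interval that holds 1. It was 1.35-fold higher in wild boar than in Large White liver (1.32 to 1.37).

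miR-148b-3p also stood apart from miR-152 in the Large White library. There were 3.90 reads of miR-152 for each read of miR-148b-3p in the Enshi black, 4.19 in the wild boar and 7.17 in the Large White library. The ratio of miR-148b-3p to miR-152 was 1.84-fold higher in Enshi black than in Large White liver (1.75 to 1.94) and 1.71-fold higher in wild boar than in Large White liver (1.63 to 1.80). Between the Enshi black and the wild boar library it was 1.07-fold (1.03 to 1.12), the closest of the 3 pairs. The deposited counts of miR-148b-3p and miR-152 in the Enshi black and Large White libraries, and of miR-148a-3p and miR-152 in the wild boar library, are not whole numbers. Some reads were therefore divided between names, and how many cannot be read from the files. Among the 5p arms, there were 9.99, 12.6 and 22.2 reads of miR-148a-5p for each read of miR-148b-5p in the Enshi black, wild boar and Large White libraries, again with the Large White value the highest. The ratio of miR-148b-5p to miR-148a-5p was 2.22-fold higher in the Enshi black (1.59 to 3.15) and 1.77-fold higher in the wild boar (1.27 to 2.50), each against the Large White library.

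As a background for these shares, 55 miRNAs were placed in 21 families, this one included, a grouping chosen after the data were seen. This family was joined by its seed and the others by a shared number, with the most abundant arm of each miRNA. A number family could thus hold different arms, as with miR-199a-5p and miR-199b-3p, so the background is not fully alike. A share at least 2-fold apart was found for 1.82% of the 55 miRNAs in Enshi black over Large White, 9.09% in wild boar over Large White and 3.64% in Enshi black over wild boar. A member that holds most of its family cannot double its share. These rates and the median below may thus be too low beside a scarce member such as miR-148b-3p. miR-148b-3p was past 2-fold in wild boar over Large White, at 2.16-fold, where 4 of the other miRNAs were further apart. In Enshi black over Large White its share was 1.79-fold apart, with 3 miRNAs further apart and a median of 1.12-fold. The share of miR-148a-3p was 1.01-fold and 1.07-fold apart in those pairs, and that of miR-152 1.03-fold and 1.26-fold. The family's make-up as a whole, taken as the points of share that changed hands between members, moved by 1.44 percentage points in Enshi black over Large White, 5.48 in wild boar over Large White and 4.36 in Enshi black over wild boar. The medians over the 21 families were 2.98, 3.42 and 4.14 in those pairs. In wild boar over Large White the share of miR-148a-3p differed by −5.48 points, that of miR-152 by 3.38 and that of miR-148b-3p by 2.10.

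The levels themselves depend on how libraries are scaled. CPM were scaled with the trimmed mean of M-values (TMM), which takes most miRNAs as equal between libraries. Without it, on library totals, the median log2 ratio over all miRNAs was 0.60 in Enshi black over Large White, 0.46 in wild boar over Large White and 0.15 in Enshi black over wild boar. After TMM these medians were −0.04, −0.02 and −0.01. The order of the members by level was miR-148a-3p, miR-152, miR-148b-3p, miR-148a-5p and miR-148b-5p in every library. Scaling cannot change this order, since it acts alike on all counts of a library. The comparison also holds any difference in how well each miRNA enters a library, which was not tested.

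miR-148a-3p had 153111 reads in the Enshi black, 159188 in the wild boar and 114837 in the Large White library, or 16482, 18882 and 20247 CPM after TMM. It ranked 11th, 9th and 9th among the miRNAs of those libraries, so it was among the most abundant miRNAs of each library. On library totals it had 19805, 20344 and 15639 CPM, so the Large White library was the highest after TMM and the lowest on library totals, while the Enshi black stood below the wild boar on both scales. Its log2 ratio was −0.30 in Enshi black over Large White after TMM and 0.34 on library totals, on either scale below the 2-fold threshold. In wild boar over Large White the log2 ratio was −0.10 after TMM and 0.38 on library totals. The Enshi black over wild boar value was −0.20 after TMM and −0.04 on library totals. No direction between breeds is given for miR-148a-3p where the Large White is in the pair.

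miR-152 had 23176 reads in the Enshi black, 32818 in the wild boar and 17596 in the Large White library, or 2495, 3893 and 3102 CPM after TMM. It was highest in the wild boar library on both scales. The log2 ratio was 0.33 in wild boar over Large White after TMM and 0.81 on library totals, and −0.64 in Enshi black over wild boar after TMM and −0.48 on library totals. The Enshi black library had 0.641 times the wild boar level after TMM (exact interval 0.630 to 0.652), the lowest ratio of any member in that pair, and 186 of 208 miRNAs had a higher ratio. Its log2 ratio in Enshi black over Large White was −0.31 after TMM and turned to 0.32 on library totals.

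miR-148b-3p had 5944 reads in the Enshi black, 7839 in the wild boar and 2454 in the Large White library, or 640, 930 and 433 CPM after TMM. The Large White level was the lowest and the wild boar level the highest, on library totals too, where it had 769, 1002 and 334 CPM. It was 2.15-fold higher in wild boar than in Large White liver after TMM (2.05 to 2.25) and had a log2 ratio of 1.58 on library totals, and 15 of 208 miRNAs had a higher ratio. Against the Large White, the Enshi black ratio was 1.48-fold after TMM (1.41 to 1.55) and 2.30-fold on library totals, so it passes 2-fold on the second scale. The ratio in Enshi black over wild boar was 0.688-fold (0.665 to 0.712).

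The 5p arms were scarce, and miR-148b-5p was lowest in the same library as its partner arm. miR-148b-5p had 150 reads in the Enshi black, 157 in the wild boar and 51 in the Large White library, or 16.1 (13.7 to 18.9), 18.6 (15.8 to 21.8) and 8.99 CPM (6.70 to 11.8) after TMM. The interval of the Large White library lay below those of the other 2, which overlapped each other. It was 2.07-fold higher in wild boar than in Large White liver (1.501 to 2.90), and 1.80-fold in Enshi black over Large White (1.299 to 2.52), which became 2.89-fold and 2.79-fold on library totals. The Enshi black over wild boar ratio was 0.867-fold with an interval of 0.689 to 1.09, which holds 1. miR-148a-5p had 1498, 1972 and 1133 reads in the Enshi black, wild boar and Large White libraries, or 161, 234 and 200 CPM after TMM. It was highest in the wild boar on both scales. Its log2 ratio was 0.23 in wild boar over Large White and −0.54 in Enshi black over wild boar after TMM, and 0.71 and −0.38 on library totals. In Enshi black over Large White it was −0.31 after TMM and turned to 0.33 on library totals.

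**Figure D2:**
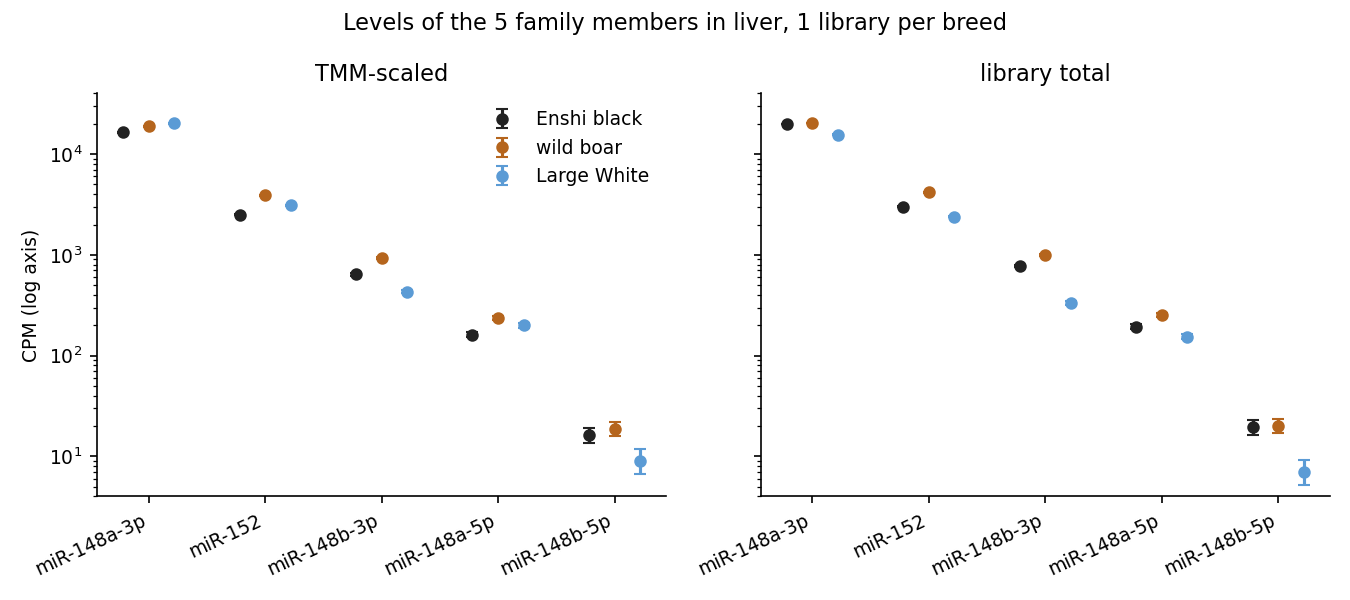
Level of each member (y axis, CPM on a log axis) in the Enshi black, wild boar and Large White libraries, with TMM scaling on the left and library totals on the right, and exact 95% intervals, most of them smaller than the points. miR-148b-3p and miR-148b-5p were lowest in the Large White library on both scales. miR-148a-3p was highest in the Large White library after TMM and lowest there on library totals.

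The seed family as a whole, summed over miR-148a-3p, miR-148b-3p and miR-152, held 2.36% of all reads in the Enshi black (2.35 to 2.37), 2.55% in the wild boar (2.54 to 2.57) and 1.84% in the Large White library (1.83 to 1.85). After TMM the sum was 19616, 23704 and 23782 CPM in the same order. The log2 ratio of the sum was −0.28 in Enshi black over Large White, −0.005 in wild boar over Large White and −0.27 in Enshi black over wild boar. On library totals these became 0.36, 0.48 and −0.12, so the direction in the first pair turned. Set against the hepatocyte miRNA instead, there were 6.89, 6.47 and 4.44 reads of the seed family for each 100 reads of miR-122 in the Enshi black, wild boar and Large White libraries. This value also moves with miR-122, which had a log2 ratio of −0.91 in Enshi black over Large White and −0.55 in wild boar over Large White after TMM, and −0.28 and −0.07 on library totals. The family sum against the Large White library was −0.28 and −0.005 in those pairs after TMM, and 0.36 and 0.48 on library totals. Whether the higher value per miR-122 read goes with lower miR-122 or with a higher sum thus depends on the scaling, and was not tested.

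The members past 2-fold were also counted beside all miRNAs. With 5 members from 3 precursors such counts are a description, and whether the family stands out was not tested. The criterion was a difference of at least 2-fold after TMM with an interval excluding 1, applied to 208 miRNAs with a mean of at least 10 CPM. All 5 members passed that minimum, though miR-148b-5p was under it in the Large White library, at 6.95 CPM on library totals, and passed through the other libraries. In wild boar over Large White, 2 of 5 members were higher and 0 lower, namely both arms of miR-148b, where 25% of all miRNAs met the criterion and 11.5% did so as higher. The 2 arms come from 1 precursor, so they are not separate observations of it. The members' median log2 ratio was 0.33 and that of all miRNAs −0.02.

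In Enshi black over Large White, 0 of 5 members passed, where 13% of all miRNAs did, with 6 higher and 21 lower. The members' median log2 ratio was −0.30 and that of all miRNAs −0.04. On library totals miR-148b-3p and miR-148b-5p were counted as higher in the Enshi black library, where 30.3% of all miRNAs were counted, with 57 higher and 6 lower. In Enshi black over wild boar, 0 of 5 members passed, where 12.5% of all miRNAs did, with 13 higher and 13 lower. On library totals 10.6% did, with 15 higher and 7 lower. All 5 members had a log2 ratio below 0 in that pair on both scales, where 105 of 208 miRNAs did after TMM and 74 on library totals, though the interval of miR-148b-5p holds 1. The members' median was −0.54 after TMM and −0.38 on library totals, and that of all miRNAs −0.01 and 0.15. In wild boar over Large White the split over all miRNAs was 24 higher and 28 lower after TMM, and 45 and 19 on library totals, where 30.8% were counted, with the same 2 members higher. The comparisons share libraries and are not independent of each other.

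**Figure D3:**
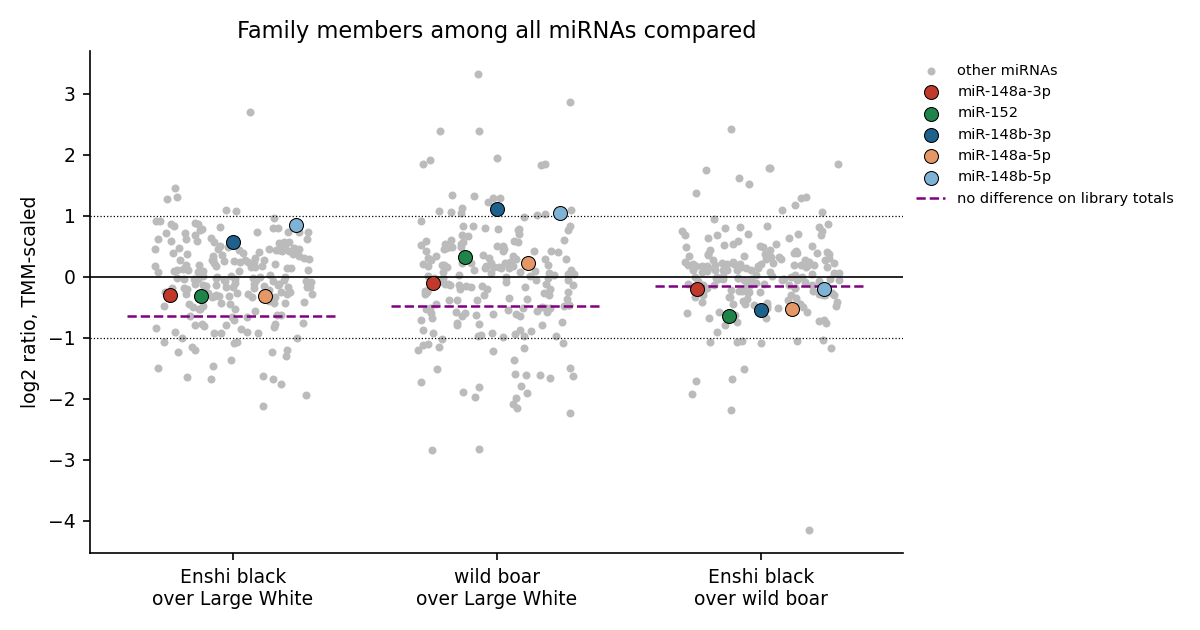
Log2 ratio of the TMM-scaled counts (y axis) of each family member, in colour, among the 208 miRNAs compared, in grey, for the 3 pairs of libraries. Dotted lines mark 2-fold and each dashed line marks where a miRNA with no difference on library totals would lie. Both arms of miR-148b lay past 2-fold in wild boar over Large White, while miR-148a-3p and miR-152 lay under 2-fold in every pair and fell between the dashed line and 0 in Enshi black over Large White, where their direction turns with the scaling.

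Arm use of the miR-148 precursors was strongly on the 3p side and close between breeds. Of the reads of mir-148a, 0.969% came from the 5p arm in the Enshi black (0.921 to 1.02), 1.22% in the wild boar (1.17 to 1.28) and 0.977% in the Large White library (0.921 to 1.04). The wild boar interval lay above the other 2, which overlapped almost wholly. Of the reads of mir-148b, 2.46% came from the 5p arm in the Enshi black (2.09 to 2.88), 1.96% in the wild boar (1.67 to 2.29) and 2.04% in the Large White library (1.52 to 2.67), and all 3 intervals overlapped. For miR-152 only 1 arm is named in the counts, so it has no arm share here.

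The 5p to 3p ratio of mir-148a was 1.26-fold higher in wild boar than in Large White liver (exact conditional interval 1.17 to 1.35), 0.992-fold in Enshi black over Large White (0.917 to 1.07) and 0.790-fold in Enshi black over wild boar (0.738 to 0.845). That of mir-148b was 0.964-fold in wild boar over Large White (0.696 to 1.35), 1.21-fold in Enshi black over Large White (0.875 to 1.71) and 1.26-fold in Enshi black over wild boar (0.998 to 1.59). All 3 intervals of mir-148b hold 1, so both of its arms were lower in the Large White library with no detectable change in arm use at this depth. No member precursor was past 2-fold, where 21% of the 62 precursors with at least 100 reads were in wild boar over Large White, 11.3% in Enshi black over Large White and 14.5% in Enshi black over wild boar. The median precursor was 1.42-fold, 1.41-fold and 1.35-fold apart in those pairs. Of the 62 precursors, 61 were further apart than mir-148a in Enshi black over Large White, 39 in wild boar over Large White and 33 in Enshi black over wild boar. For mir-148b these numbers were 44, 58 and 36 in the same order.

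**Figure D4:**
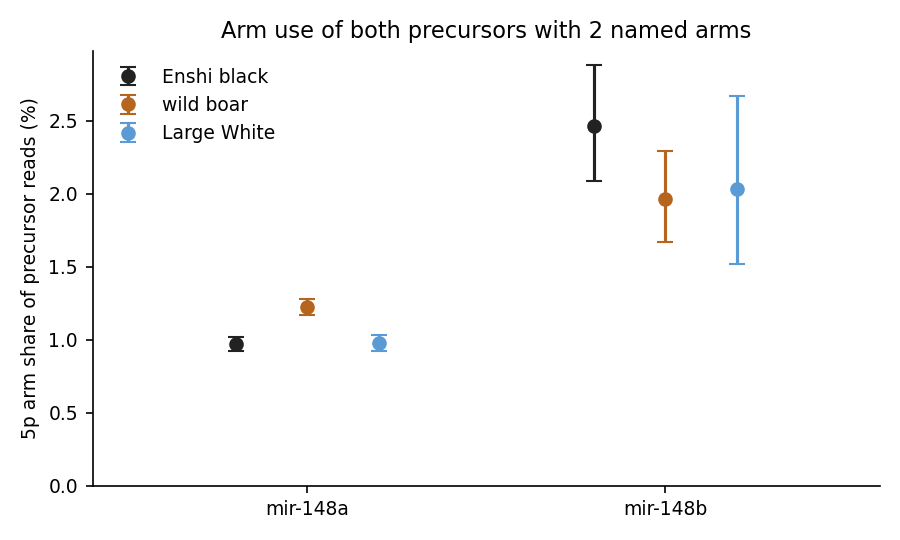
Share of the reads of the precursors mir-148a and mir-148b that came from the 5p arm (y axis, percent) in the Enshi black, wild boar and Large White libraries, with exact 95% intervals. The wild boar stood higher for mir-148a, at 1.22%, and the 3 intervals of mir-148b overlapped.

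Other miRNAs with a pattern most like that of each guide were found by the Euclidean distance between centred log2 CPM over the 3 libraries, among 130 miRNAs with a mean of at least 100 CPM. With 3 libraries such a distance is only a description. Nearest to miR-148a-3p were miR-26a (distance 0.072), miR-320 (0.099), miR-486 (0.102), miR-99a (0.108) and miR-342 (0.113), all within narrow ranges over the breeds. Nearest to miR-148b-3p were miR-542-5p (0.015), miR-30d (0.124), miR-92a (0.203), miR-30c-5p (0.221) and miR-27b-3p (0.222). Like it, miR-542-5p was lowest in the Large White library, with 223 CPM in the Enshi black, 320 in the wild boar and 150 in the Large White library. Nearest to miR-152 were miR-34a (0.079), miR-148a-5p (0.084), miR-425-3p (0.159), let-7a (0.167) and miR-107 (0.186). None of the 3 guides was among the 5 nearest to another. miR-152 was the 33rd nearest miRNA to miR-148a-3p and miR-148a-3p the 18th nearest to miR-152, at a distance of 0.357. miR-148b-3p lay further off, as the 104th nearest to miR-148a-3p, at 0.878, and the 67th nearest to miR-152, at 0.680.

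Further lists of miRNAs with targets like those of the family were described beside it. The first held miRNAs linked to cholesterol and lipoprotein metabolism. Of its 17 entries, 12 were named in the counts and 11 passed the minimum. In wild boar over Large White, 2 were higher and 1 was lower, with a median log2 ratio of 0.30, where 25% of all 208 miRNAs passed, with 24 higher and 28 lower and a median of −0.02. miR-758, a repressor of ABCA1 in human and mouse cells, had a log2 ratio of 3.33 on 269 against 18 reads and passed the minimum through the other libraries. miR-30c-5p, which lowers microsomal triglyceride transfer protein, had 1.06, and miR-144, a repressor of ABCA1, had −1.89. In Enshi black over Large White, miR-758 was higher (2.70) and miR-144 lower (−1.21), with a median of 0.30 where 13% of all miRNAs passed, and on library totals miR-144 was under 2-fold at −0.57. None of the 11 passed 2-fold in Enshi black over wild boar, where 12.5% of all miRNAs did. The most abundant entry, miR-26a, had log2 ratios of −0.22, −0.005 and −0.22 in Enshi black over Large White, wild boar over Large White and Enshi black over wild boar, close to those of miR-148a-3p. On library totals the first 2 were 0.42 and 0.48. The list's medians on library totals were 0.93, 0.78 and 0.32, where those of all miRNAs were 0.60, 0.46 and 0.15. On that scale miR-27a and miR-130b were also past 2-fold higher in Enshi black over Large White, at 1.37 and 1.26, with miR-30c-5p at 1.45, where 57 of 208 miRNAs were counted as higher. miR-27b-3p was then past 2-fold in wild boar over Large White, at 1.28, where 45 were.

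The second list held 8 miRNAs reported to repress DNA methyltransferases in human cells, all above the minimum. In both pairs with the Large White library, 0 were higher and 2 were lower, namely miR-101 and miR-29b, where 21 of 208 miRNAs were lower in Enshi black over Large White and 28 in wild boar over Large White. miR-101 had 42525, 44375 and 135568 CPM in the Enshi black, wild boar and Large White libraries after TMM and log2 ratios of −1.67 and −1.61 against the Large White library. miR-29b had 1785, 998 and 3980 CPM and log2 ratios of −1.16 and −2.00. On library totals miR-29b was under 2-fold in Enshi black over Large White, at −0.52, and miR-126-3p and miR-143-3p were past 2-fold higher there, at 1.31 and 1.07, where 30.3% of all miRNAs were counted. The list's median log2 ratio was −0.06 in Enshi black over Large White, −0.32 in wild boar over Large White and 0.45 in Enshi black over wild boar, where 0 of 8 passed 2-fold, and 0.57, 0.16 and 0.60 on library totals. In the pairs with the Large White library, miR-148b-3p had ratios above 1 on either scale, and the list was mixed. miR-101 and miR-29b had ratios below 1 there, and miR-126-3p and miR-143-3p ratios above 1, on either scale. The rest of the list, miR-185, miR-29a, miR-29c and miR-342, turned with the scaling in Enshi black over Large White. In wild boar over Large White, miR-29a and miR-342 turned too, while miR-185 and miR-29c had ratios below 1 on either scale. Their log2 ratios there were −0.56 and −0.78 after TMM, and −0.08 and −0.30 on library totals.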

How the data were processed

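Small RNA of 14 to 40 nucleotides was sequenced as single-end reads of 50 bases, per the labels' protocols. The deposited files hold 486 rows each of expected counts per mature miRNA and precursor, with fractions where reads match several names. The deposited RPM are those counts per 1000000 of a library's sum and were not used, since counts were at hand. The submitters' processing notes name the build Sscrofa 10.2, with no aligner, counter or annotation given in the sources used here.

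Counts were summed over precursors and rounded. Rows of 6 names that repeat another name's reads were left out, which left 405 miRNAs. TMM factors (edgeR 4.0.16, R 4.3.3) were 1.20 for the Enshi black, 1.08 for the wild boar and 0.772 for the Large White library. Expression minimums were applied to the mean CPM on library totals. Ratios have exact conditional-binomial 95% intervals, ratios of ratios exact conditional intervals (scipy 1.17.1) and shares Clopper-Pearson intervals. The count rule was tested on simulated counts that held counting error alone. They held no spread between animals, so this test does not bear on such differences. With 1 library per breed there is no spread to test against. Of listed miRNAs, all past 2-fold were named, otherwise the most abundant, and of the patterns the 5 nearest. Members, lists and alternatives were chosen with earlier results of these data known.

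Alternatives were library totals, library totals without miR-122, DESeq2 1.42.0 size factors, unrounded counts, no expression minimum or 100 mean CPM, 5p arms in the family total and at least 1000 reads per precursor. Sscrofa11.1 gene names came from RefSeq, matched by hairpin name for all 3 precursors, and no coordinates are given.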

Additional observations from a re-analysis of the deposited data

How the results depend on the processing

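Shares within the family and arm shares do not change with scaling, and unrounded counts left them and the log2 ratios of the members and of the family sum within their intervals. With the 5p arms in the total, miR-148a-3p held 83.3% in the Enshi black, 78.8% in the wild boar and 84.4% in the Large White library, and miR-152 held 16.2% in the wild boar library. The seed family sum had log2 ratios for Enshi black over Large White, wild boar over Large White and Enshi black over wild boar of 0.36, 0.48 and −0.12 on library totals, 0.19, 0.43 and −0.24 on totals without miR-122, and −0.20, 0.047 and −0.25 with DESeq2 size factors. In Enshi black over Large White, 2 members passed 2-fold on library totals and on totals without miR-122, against 0 after TMM, and over all miRNAs 63 and 45 passed, against 27. In wild boar over Large White, 1 of 4 members passed with a minimum of 100 CPM, since miR-148b-5p falls under it. With no minimum, 52, 85 and 50 miRNAs passed in the 3 pairs, and with a minimum of 100 CPM 13, 31 and 14, since more or fewer were compared. With at least 1000 reads, 8 of 37 precursors had arm ratios 2-fold apart in wild boar over Large White and 4 in Enshi black over wild boar. The members past 2-fold after TMM, both arms of miR-148b in wild boar over Large White, kept their direction, which these alternatives could not turn. Each alternative scaling shifts that pair upward, by a log2 of 0.48 on library totals, 0.43 without miR-122 and 0.05 with DESeq2 size factors. No paired analysis was possible because each breed has 1 library and the labels give no replicate numbers. Counting error is small for the 3 guides and limits only miR-148b-5p, at 51 reads in the Large White library.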

Other observations

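The seed of the miR-130 and miR-301 family overlaps that of the miR-148 and miR-152 family with a shift, and the 3 of 6 listed members named in the counts were all above the minimum. They summed to 1045 CPM in the Enshi black, 988 in the wild boar and 805 in the Large White library after TMM, well below the miR-148 and miR-152 seed family. miR-130a had 797, 813 and 574 CPM in the same order, lowest in the Large White library like miR-148b-3p. miR-130b had 120, 96.3 and 78.3 CPM. miR-301 had 128, 78.9 and 153 CPM and was lowest in the wild boar. None of the 3 passed 2-fold after TMM in any pair. On library totals miR-130a and miR-130b did in Enshi black over Large White, with log2 ratios of 1.11 and 1.26, where 30.3% of all miRNAs were counted.

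The liver-enriched list of 11 miRNAs had 0 higher and 5 lower members in Enshi black over Large White and 1 higher and 4 lower in wild boar over Large White after TMM, with medians of −0.93 and −0.92. Over all 208 miRNAs, 6 were higher and 21 lower in the first pair and 24 higher and 28 lower in the second, with medians of −0.04 and −0.02. Lower in both pairs were miR-101, miR-215 and miR-22-3p, with miR-192 and miR-885-5p lower in the first pair and miR-30e-5p in the second. On library totals 0 were higher and 1 was lower in the first pair, and 2 higher and 3 lower in the second, where over all miRNAs 57 were higher and 6 lower in the first pair and 45 higher and 19 lower in the second. The lower ones there were miR-101 in both pairs, with miR-215 and miR-22-3p in the second, and the higher ones miR-365-3p and miR-455-3p. The higher member after TMM was miR-365-3p, with 576, 1217 and 573 CPM in the Enshi black, wild boar and Large White libraries. miR-22-3p had 5386, 5872 and 16631 CPM, and miR-148a-3p, at log2 ratios of −0.30 and −0.10, lay between them.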
